A study of Homo sapiens with 2 samples.

Results

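The region from 88900000 to 90000000 on chromosome 16 (hg19) holds CBFA2T3 and ANKRD11. It is rich in called UTX peaks of Jurkat cells and in peaks of a TAL1 list from an earlier study. Its members were chosen by position, as every peak with at least 1 base in this window of 1.1 Mb, and the window itself was chosen because both peak lists are dense there. There were 57 members of 20074 peaks in all, namely 48 of the 17396 UTX peaks and 9 of the 2678 TAL1 peaks. In the TAL1 list, 1 peak lay in CBFA2T3, 7 lay between the genes, 0 lay in ANKRD11 and 1 lay beyond ANKRD11. UTX was called in both genes, with 4 peaks in CBFA2T3 (3.88 per 100 kb) and 12 in ANKRD11 (5.38 per 100 kb). Most TAL1 peaks lay outside the approximate bounds of both genes. Of these, 2 lay in a UTX peak that began 0.898 kb past the 5′ end of CBFA2T3.

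The UTX peaks came from chromatin immunoprecipitation with sequencing (ChIP-seq) of untreated Jurkat cells, an established human line of T cell acute lymphoblastic leukaemia, with a mixture of antibodies against UTX. The series held 1 UTX library and 1 mock library made with an isotype IgG, and the mock library was not analysed here. The TAL1 list was taken by the submitters from an earlier study. No source used here gives its cells, its genome build or the number of libraries behind it. The hg19 build was taken for it from the series and from its overlap with the UTX list. Both lists give positions alone, so depth is unknown, width is the measure of peak size used below, and no value has a replicate. All values below describe these 2 lists, and no test was made, because peak density chose the region.

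UTX, encoded by KDM6A, is an enzyme that takes methyl groups off lysine 27 of histone H3, where they mark Polycomb silencing. TAL1 is a basic helix-loop-helix factor that pairs with E proteins, binds E-box sequences and works in blood cells in a complex with GATA and LIM-domain proteins. CBFA2T3, also called ETO2 or MTG16, is a corepressor of the ETO family that joins this TAL1 complex through E proteins and recruits histone deacetylases. ANKRD11 is a large nuclear ankyrin repeat protein that binds nuclear receptor coactivators and deacetylases and is mutated in KBG syndrome.

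Both genes are read from the minus strand, so the 5′ end of each is its higher coordinate. CBFA2T3 was taken at about 88941000 to 89044000 and ANKRD11 at about 89334000 to 89557000, bounds that are approximate. In RefSeq's GRCh38.p14 gene order, 4 protein-coding genes with a full name lie between them, which are ACSF3 (a mitochondrial acyl-CoA synthetase), CDH15 (M-cadherin), SLC22A31 (a solute carrier) and ZNF778 (a zinc finger protein). That order continues with SPG7, a mitochondrial protease subunit, and RPL13, a ribosomal protein, beyond ANKRD11. These neighbours were not placed against single peaks, because the table follows another build than the peak lists.

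The promoters of both genes are shown because the region is named for them. Each runs 5′ to 3′ from 250 bases before to 50 bases after a RefSeq start site on the minus strand of GRCh38.p14. The first is at chr16:88941301-88941600 and the second at chr16:89490512-89490811 in that build, positions that must not be compared with the hg19 positions of the peaks. Capitals mark the E-box CANNTG, the same on both strands.
CBFA2T3: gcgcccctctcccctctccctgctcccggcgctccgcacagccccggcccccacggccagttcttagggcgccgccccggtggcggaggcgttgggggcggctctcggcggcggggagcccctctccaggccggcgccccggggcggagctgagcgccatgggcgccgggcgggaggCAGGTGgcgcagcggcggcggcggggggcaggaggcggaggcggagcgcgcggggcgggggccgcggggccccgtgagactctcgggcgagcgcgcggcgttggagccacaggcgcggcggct
ANKRD11: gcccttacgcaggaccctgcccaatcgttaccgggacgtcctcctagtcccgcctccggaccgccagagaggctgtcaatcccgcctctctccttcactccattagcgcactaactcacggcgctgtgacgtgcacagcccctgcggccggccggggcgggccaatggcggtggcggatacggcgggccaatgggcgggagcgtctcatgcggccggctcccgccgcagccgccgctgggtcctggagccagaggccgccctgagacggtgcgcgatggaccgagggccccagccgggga
The CBFA2T3 promoter held 1 CANNTG, 0 matches to GATA on either strand and 0 to TGTGGT, the core bound by RUNX factors, on either strand. The ANKRD11 promoter held 0, 1 and 0. Among 35116 RefSeq promoters of the same length, 68.7% held CANNTG, 49.7% held GATA and 13.1% held TGTGGT, and none of these motifs overlapped another in the sequences shown. Both sequences were rich in G and C, at 83.0% for CBFA2T3 and 71.7% for ANKRD11, against a median of 58.7%. CBFA2T3 held 46 CG dinucleotides and ANKRD11 held 34, against a median of 14. The CBFA2T3 start site of this table lies inside the gene in the RefSeq annotation and not at its 5′ end, and whether a peak covers it was not determined. The ANKRD11 start site is at the 5′ end of that gene.

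**Figure D1:**
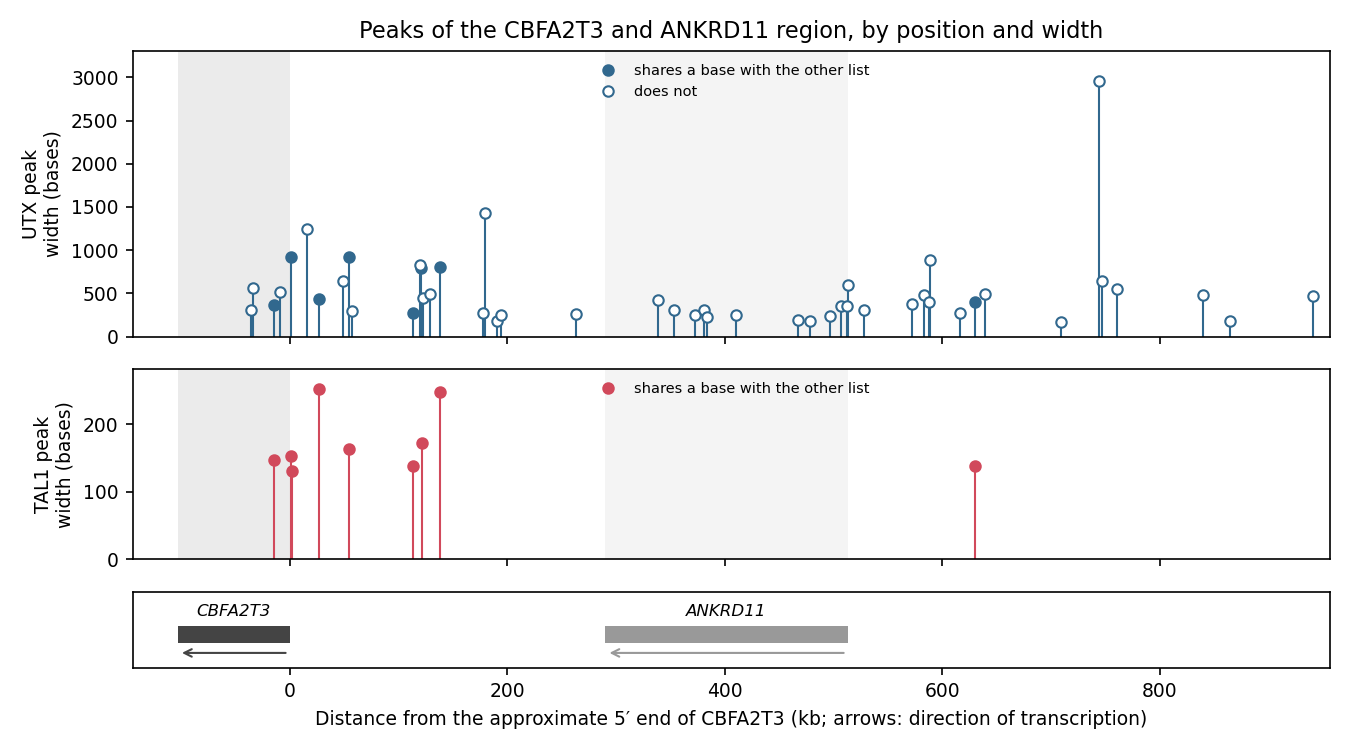
Position (x axis, kb from the approximate 5′ end of CBFA2T3) and width (y axis, bases) of the 48 UTX peaks and the 9 TAL1 peaks, with the approximate genes shaded. Filled points share at least 1 base with the other list. TAL1 peaks gather from the 5′ part of CBFA2T3 to 138 kb beyond it, and 1 more lies beyond ANKRD11. None lies in ANKRD11, where 12 UTX peaks lie, while 12.1% of the whole UTX list holds TAL1.

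In CBFA2T3, the 4 UTX peaks all lay in the 5′ part of the gene. The 67.4 kb from its 3′ end to the first of them had no peak of either list. The first was at 89008393 to 89008705, 313 bases wide, and the second at 89009444 to 89010009, 566 bases wide, so the pair stood 34.0 to 35.6 kb inside the gene, with no TAL1 peak. The next one, 369 bases from 89029223 to 89029591, lay 14.4 kb inside the gene and held the TAL1 peak of the gene, 147 bases at 89029355 to 89029501. The last, at 89034450 to 89034964 and 515 bases wide, lay 9.04 kb inside the gene with no TAL1 peak.

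Just past the 5′ end of CBFA2T3 lay the UTX peak of the region with the most TAL1 peaks. It measured 922 bases, from 89044898 to 89045819, began 0.898 kb beyond the approximate end of the gene and held 2 TAL1 peaks, of 153 bases at 89045222 to 89045374 and of 131 bases at 89045504 to 89045634. These TAL1 peaks stood 129 bases apart. By width, this UTX peak exceeded 97.2% of the UTX list. With the gene bounds widened by 5 kb to each side, the site counted as part of CBFA2T3, which then had 5 UTX peaks in place of 4 and 3 TAL1 peaks in place of 1. The count of TAL1 peaks at CBFA2T3 thus rests on where its 5′ end is set.

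Between the genes, 17 UTX peaks and 7 TAL1 peaks were called over 290 kb, 5.86 UTX and 2.41 TAL1 peaks per 100 kb, the highest density of the 5 segments in both lists. The rest of chromosome 16 had 0.741 UTX and 0.119 TAL1 peaks per 100 kb. Of these 17 UTX peaks, 6 held TAL1, or 35.3%, beside 12.1% of the whole UTX list. The 95% exact binomial interval of that 35.3% was 14.2 to 61.7%, for counting of peaks only. Density in both lists chose the window, and 7 of its 9 TAL1 peaks lay in this segment. The difference from the whole list was therefore not tested. Moving away from CBFA2T3, the next UTX peak was 1244 bases wide, at 89058792 to 89060035, and had no TAL1. A UTX peak of 436 bases at 89070439 to 89070874 followed, with the widest TAL1 peak of the region, 252 bases at 89070601 to 89070852. This TAL1 peak filled 57.8% of the UTX peak, the largest part among the 9 pairs.

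Further towards ANKRD11, 3 UTX peaks formed a group from 89092327 to 89101762. The middle one, 923 bases at 89098268 to 89099190, held a TAL1 peak of 163 bases at 89098512 to 89098674, and its neighbours of 641 and 300 bases held none. The largest group of the region came next, with 6 UTX peaks in 25.7 kb from 89156727 to 89182433. Its first peak measured 270 bases and held a TAL1 peak of 138 bases at 89156810 to 89156947. Its peak of 793 bases held a TAL1 peak of 173 bases at 89165026 to 89165198. Its last measured 805 bases and held one of 248 bases at 89181742 to 89181989. The other 3 peaks of the group, of 828, 450 and 497 bases, had no TAL1, although the one of 828 bases lay 0.956 kb from a TAL1 peak and the one of 450 bases 1.01 kb.
No TAL1 peak was called past this group up to ANKRD11. The 5 UTX peaks there included the second widest of the region, 1435 bases at 89222483 to 89223917, and one of 178 bases at 89233936 to 89234113. The last peak before ANKRD11 was at 89307258 to 89307517 and measured 260 bases, with 69.1 kb free of UTX peaks before it and 75.1 kb after it.

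**Figure D2:**
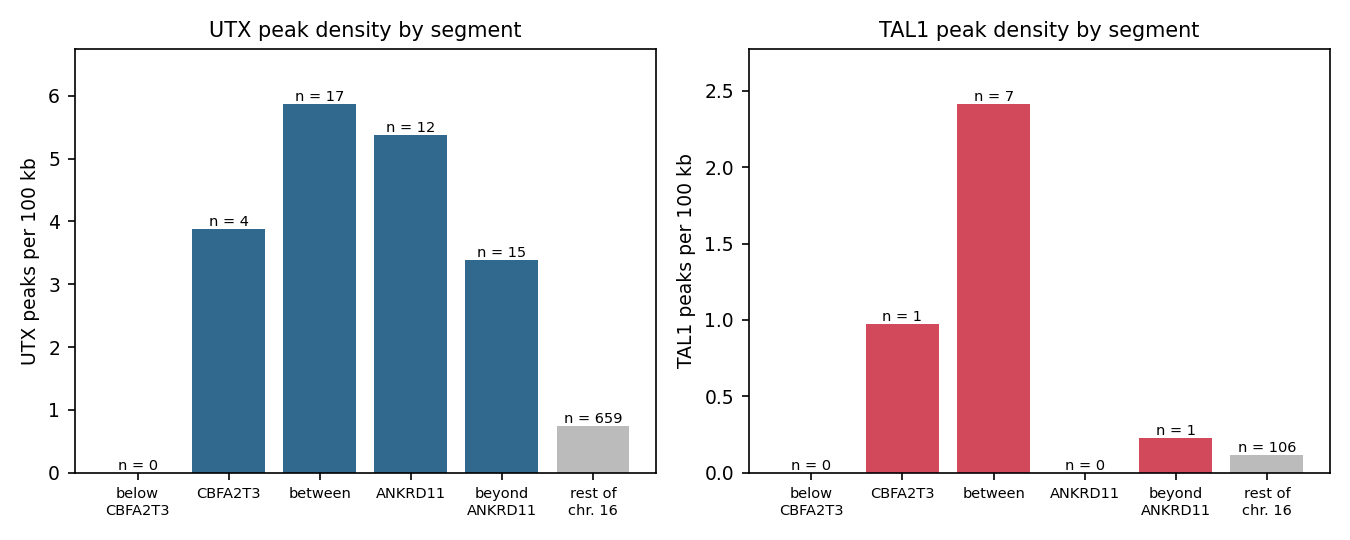
UTX peaks (left) and TAL1 peaks (right) per 100 kb in the 5 segments of the region, in chromosomal order, and on the rest of chromosome 16, with the number of peaks above each bar. UTX stands at 5.38 per 100 kb in ANKRD11 and TAL1 at 0, beside 0.741 and 0.119 on the rest of chromosome 16. Of the 12 UTX peaks in ANKRD11, 0 hold TAL1 (exact interval up to 26.5%), beside 12.1% of the whole UTX list.

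In ANKRD11, 12 UTX peaks were called over 223 kb (5.38 per 100 kb), none with TAL1. A count of 0 of 12 allows a share of up to 25% by the 3-count limit, and the exact interval reached 26.5%. That interval also holds the 12.1% of the whole list. The difference between ANKRD11 and the segment between the genes was not tested. The nearest TAL1 peak was 116 to 246 kb away from each of the 12 (median 182 kb). They began 48.6 kb inside the 3′ end, with a peak of 428 bases at 89382609 to 89383036.
At the other end of the gene they began closer to its bound. Within 20 kb of the 5′ end lay 4 of the 12, among them the widest of the gene, 592 bases at 89556950 to 89557541. This peak spanned the approximate 5′ end, with 51 of its bases inside the bounds, and its neighbour of 359 bases at 89555611 to 89555969 lay 980 bases before it. It is the UTX peak that the ANKRD11 promoter printed above bears on, as far as the approximate end places it. The narrowest of the gene, 185 bases, was at 89521750 to 89521934.

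Beyond ANKRD11, 15 UTX peaks and 1 TAL1 peak were called over 443 kb. The TAL1 peak, 138 bases at 89674033 to 89674170, lay inside a UTX peak of 396 bases at 89673864 to 89674259. It was 492 kb from the TAL1 peak before it, a stretch that held 23 UTX peaks. It was also the last TAL1 peak of the chromosome in the list. The widest UTX peak of the region was here, 2953 bases at 89786292 to 89789244, wider than 99.9% of the UTX list and without TAL1. It had a neighbour of 644 bases 783 bases further on. The narrowest of the region, 174 bases at 89753155 to 89753328, was here too, so this segment spanned the full range of widths.

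At its lower border, the window had no peak for 108 kb, which took in all 41 kb below CBFA2T3. The nearest UTX peak outside was 3120 bases wide at 88874976 to 88878095, 21.9 kb below the window, and the nearest TAL1 peak outside was at 88866399 to 88866661. At the upper border, the last UTX peak inside was at 89984229 to 89984694 and the first outside at 90075097 to 90075626.

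All 9 TAL1 peaks of the region lay in a UTX peak (100%, exact interval 66.4 to 100%), while 80.8% of the TAL1 list did. With 9 peaks, the interval holds the share of the list. Seen from UTX, 8 of 48 peaks held TAL1 (16.7%, interval 7.48 to 30.2%), against 84 of 659 on the rest of chromosome 16 (12.7%) and 12.1% of the whole list, a share that the interval also holds. Each of the 9 TAL1 peaks lay entirely within its UTX peak, as 1951 of the 2164 overlapping pairs of the whole lists did. The centres stood 17 to 255 bases apart, with a median of 70 bases, against 44.5 bases over the whole lists. The closest centres were at the narrow UTX peak of 270 bases, and the most distant at the UTX peak of 793 bases.

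**Figure D3:**
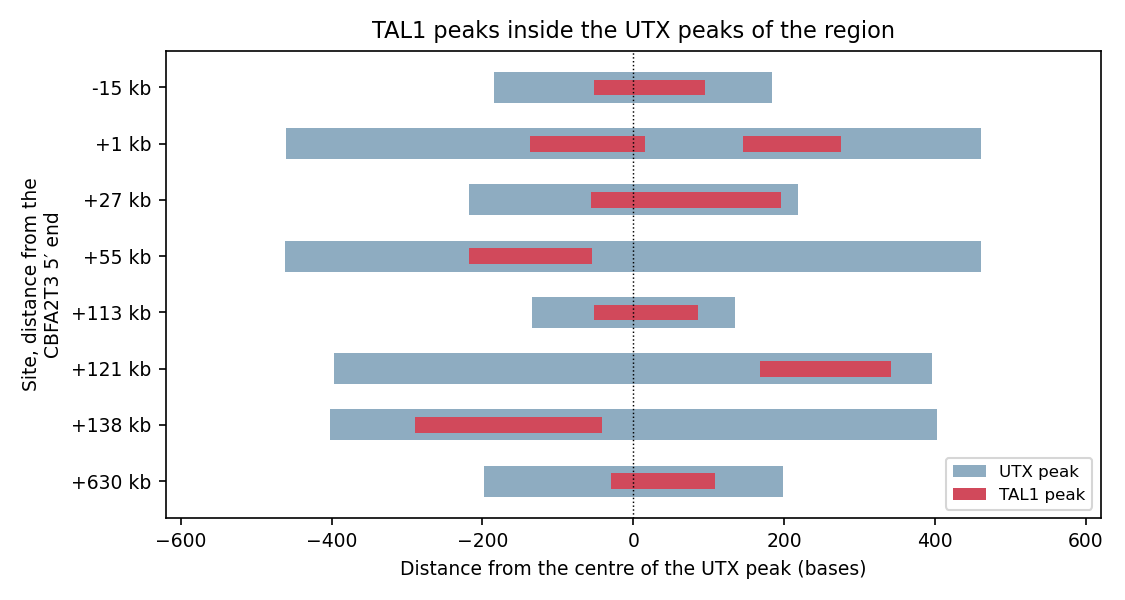
The 8 UTX peaks with TAL1, aligned on their centres (x axis, bases from the UTX centre), with each TAL1 peak drawn inside. Rows run in chromosomal order and give the distance from the CBFA2T3 5′ end. Every TAL1 bar lies within its UTX bar, off-centre by 17 to 255 bases, and the row at +1 kb holds 2.

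The TAL1 peaks came close together. From 89029355 to 89181989, a stretch of 153 kb that starts in CBFA2T3, 8 of the 9 were called. Gaps between neighbours in it were 0.129 to 58.1 kb. The stretch held 14 UTX peaks, of which 7 had TAL1 and 7 had none. In the rest of the region 1 of 34 UTX peaks had TAL1 (2.94%, exact interval 0.0744 to 15.3%). The stretch was drawn from the first to the last of its 8 TAL1 peaks, and all 9 of the region lay in UTX peaks. The counts of UTX peaks with TAL1, 7 inside and 1 outside, were therefore fixed by how it was drawn. Only the counts of UTX peaks without TAL1 were left open, and the difference in shares was not tested. Runs of 8 TAL1 peaks within the same span occurred at 3 places of the whole TAL1 list. Overlapping runs were joined into a single place, so a place can hold more than 8 peaks and exceed that span, as the 202 kb on chromosome 7 did. One was this stretch, one was at 133016718 to 133035101 on chromosome 2, where 1 of 19 TAL1 peaks lay in UTX, and one was at 92182817 to 92384749 on chromosome 7, where 14 of 14 did. In the run beside CBFA2T3, 8 of 8 lay in UTX. Of the whole TAL1 list 80.8% did, so a high share is usual in the list. The differences between the 3 places were not tested. Runs of 5 TAL1 peaks within this span, a setting chosen after seeing the data, occurred at 15 places.

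By width, UTX peaks of the region had a median of 399 bases (quartiles 269.5 and 572.5), against 320 bases (229 and 466) on the rest of chromosome 16. Peaks above the upper quartile of the whole list, 457 bases, numbered 20 of 48 (41.7%), beside 24.9% of the list. They were unevenly spread over the segments. Between the genes 9 of 17 passed that width, beyond ANKRD11 8 of 15, in CBFA2T3 2 of 4 and in ANKRD11 1 of 12. Segment medians were 442 bases in CBFA2T3, 497 bases between the genes, 274.5 bases in ANKRD11 and 466 bases beyond it. Of the 12 peaks of ANKRD11, 8 were no wider than the median of the list, beside about 50% of the list by the definition of a median. Their median of 274.5 bases lay within the quartiles of the whole list, 230 and 457 bases. UTX peaks with TAL1 had a median of 614.5 bases (270 to 923, n = 8), and those without had 370.5 bases (174 to 2953, n = 40). In the whole UTX list the medians were 405 bases with TAL1 (n = 2100) and 310 bases without (n = 15296). Wider peaks with TAL1 are thus found in the list at large. A wider UTX peak gives more bases for an overlap of at least 1 base, and no correction was made for this. In the region the ranges overlapped, and the 3 widest peaks of the region had no TAL1.
TAL1 peaks of the region measured 131 to 252 bases with a median of 153, against 147.5 bases in the whole TAL1 list. Of the 9, 2 exceeded the upper quartile of that list, 188 bases.

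**Figure D4:**
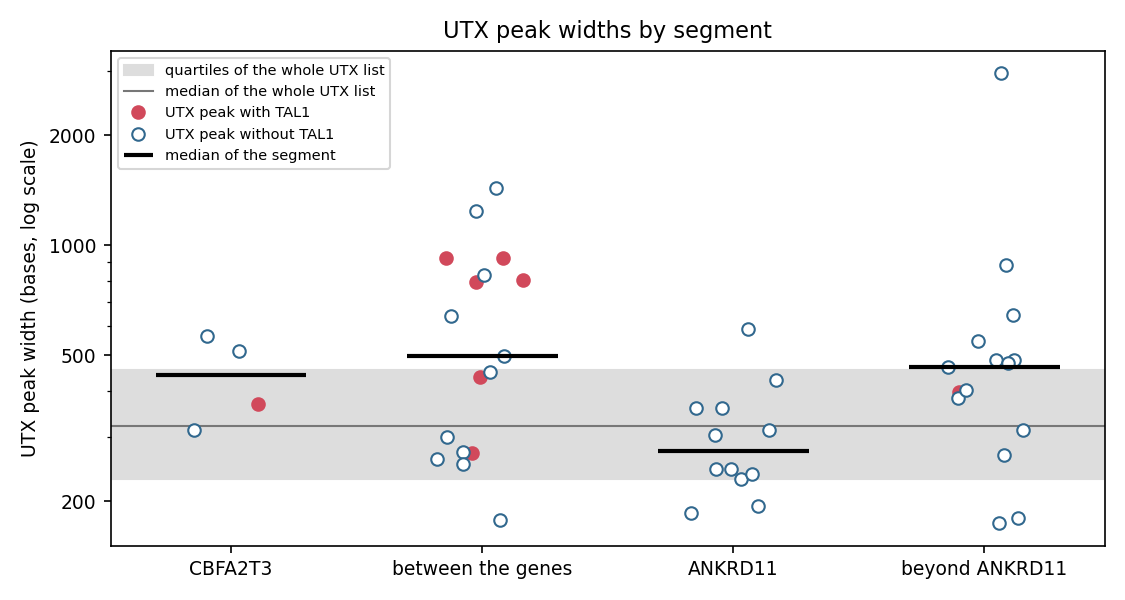
Width of each UTX peak (y axis, bases, log scale) by segment, with the segment median as a black bar and the quartiles of the whole UTX list as a grey band. Filled points hold TAL1. ANKRD11 has 1 of 12 peaks above the band, against 9 of 17 between the genes.

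UTX peaks stood nearer to each other here than in the list as a whole. The median gap between neighbours was 10.9 kb in the region, against 33.5 kb on the rest of chromosome 16 and 44.7 kb in the whole list. Density chose the region, so these gaps and the grouping of its peaks are a description. When neighbours within 10 kb were joined, 27 groups resulted, 16 of them single peaks. These made up 33.3% of the peaks, while single peaks made up 59.1% of the whole list. No group went past 6 peaks, so the peaks formed no continuous block at this distance. Groups of 5 or more held 12.5% of the peaks of the region, beside 4.94% of the whole list. The grouping depends on the distance chosen, since joining across 20 kb gave 15 groups. UTX peaks covered 3.62% of the bases between the genes, 1.71% of CBFA2T3 and 1.41% of ANKRD11.

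Over windows of 1.1 Mb laid end to end across the genome, the region held 48 UTX and 9 TAL1 peaks, beside a median of 4 UTX and 0 TAL1 peaks in 2793 windows. Of these windows, 2 (0.0716%) had at least 48 UTX and at least 9 TAL1 peaks, the region and 1 other. The other was at 92200001 to 93300000 on chromosome 7, with 61 UTX and 12 TAL1 peaks. The median UTX width was 399 bases in the region, against 732 bases in that window. Next by UTX count among windows with at least 9 TAL1 peaks came 108700001 to 109800000 on chromosome 4, with 32 UTX and 9 TAL1 peaks, of which 7 lay in UTX. Since density chose the region, its place among the windows is a description. In peaks per Mb, the region had 43.6 UTX and 8.18 TAL1 peaks, against 7.41 and 1.19 on the rest of chromosome 16, and the ratio of UTX to TAL1 peaks was 5.33 here and 6.22 there.

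**Figure D5:**
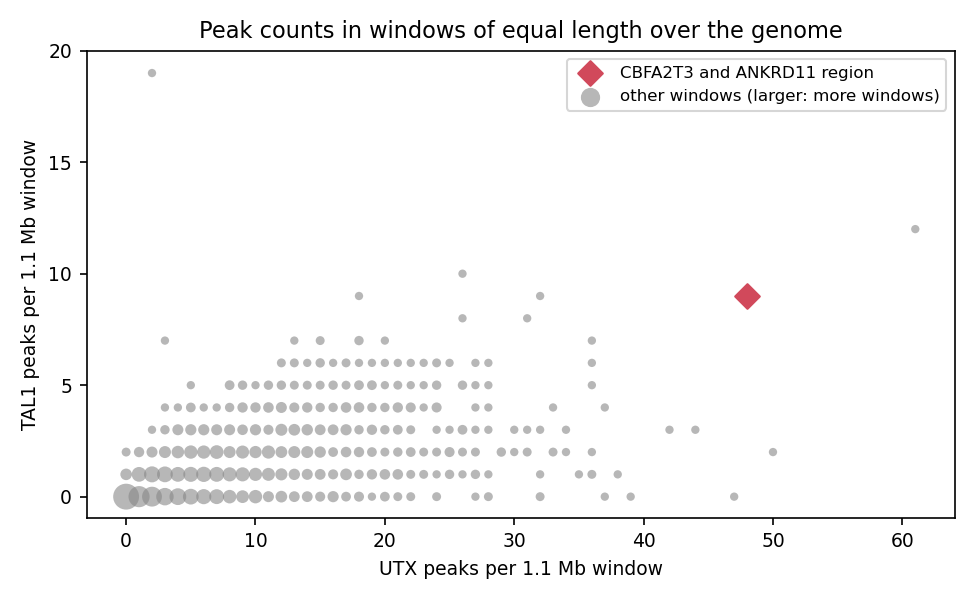
UTX peaks (x axis) and TAL1 peaks (y axis) in each of 2793 windows of 1.1 Mb. The diamond is the region, with 48 and 9 peaks, and 1 other window, with 61 and 12, lies above and to the right of it.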

How the data were processed

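The authors' deposited lists hold the chromosome, the start and the end of each peak, and positions are printed counted from 1. They hold no score, signal or count. Per the submitters' processing notes, MACS2 2.0.10, BWA 0.6.2 and SAMtools 0.1.18 were used on the hg19 build; no source used here states their settings or how the TAL1 list was called. Both lists were used whole, as intervals that do not overlap within a list. A peak belonged to the region with at least 1 base in the window, and to a gene with at least 1 base in its approximate bounds. Peaks were shared at 1 base of overlap. Intervals are 95% exact (Clopper-Pearson) binomial intervals for counting error only, and the limit for a count of 0 is 3 counts. Counts were checked with bedtools 2.31.1 (difference 0) and the code was tested on simulated lists. Python 3.11.15, numpy 2.4.6, scipy 1.17.1, pandas 2.3.3 and matplotlib 3.10.9 were used. Gene names and promoters came from RefSeq (GRCh38.p14), in which both genes were matched by symbol; no genome of the files' build was used, so no sequence under a peak was read. Named sites were all TAL1 peaks, the UTX peaks that hold them, the 5 widest and the narrowest UTX peaks, and those at gene ends, at window borders and beside the widest gaps; others named, such as the remaining members of a group and the narrowest peak of ANKRD11, were chosen after their values were seen. The members, the gene bounds and the named sites were chosen with earlier results of these data known.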

Additional observations from a re-analysis of the deposited data

How the results depend on the processing

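Of 28 values under other settings, 20 stayed within 1.5 times the reported count or density or within the interval of the reported share, and 8 moved further. With the wider 50% of each list, which holds fewer peaks, the region had 26.4 UTX and 4.55 TAL1 peaks per Mb. CBFA2T3 then had 0 TAL1 peaks and ANKRD11 had 4 UTX peaks. Leaving out peaks can only lower a count or density, so these moves come in part from the setting itself. The TAL1 peak of CBFA2T3, 147 bases wide, fell just short of the list median of 147.5 bases. With the window widened by 500 kb to each side, TAL1 stood at 5.24 peaks per Mb; the wider window may run past the chromosome's end, which was not corrected. With gene bounds widened by 5 kb, CBFA2T3 had 3 TAL1 peaks. Joining UTX peaks across 20 kb gave 15 groups in place of 27. The eighth is the count of runs of TAL1 peaks, added after seeing the data and given above. ANKRD11 had 0 TAL1 peaks under each setting tried, but these settings could not have changed that count. The wider 50% of the list only leaves peaks out. Widening the bounds by 5 kb could not reach the nearest TAL1 peak, 117 kb beyond the 5′ end. The share of TAL1 peaks in UTX was 88.9 to 100%, and of UTX peaks with TAL1 10.4 to 24.1%. No paired analysis was possible because there is a single library in each group. The lists carry no read counts, so a site called unshared may be one that the other library was too shallow to show.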

Other observations

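Below the window, the 100 kb next to it held a compact set of UTX peaks that the region does not take in. There were 7 UTX peaks from 88857108 to 88878095 on chromosome 16, 309 to 3120 bases wide with a median of 633 bases, and 1 TAL1 peak, which lay in 1 of them. They stood on the 3′ side of CBFA2T3, and 130 kb without a UTX peak separated them from the first UTX peak in the gene.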
